A study of Canis lupus familiaris with 8 samples.

Results

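Mitochondrial ribosomal proteins are the protein subunits of the mitoribosome, the ribosome inside mitochondria. They were taken here as every gene whose symbol begins with MRPL or MRPS followed by a digit. The rule found 76 genes among 34637 distinct symbols, of which 49 carry the large subunit name (MRPL) and 27 the small subunit name (MRPS). Large and small subunit mean these names in all values below. The small subunit values therefore include MRPS18A, MRPS30 and MRPS36, whose proteins are placed outside the small subunit. All 76 were found in the RefSeq gene table of the dog, and all 76 passed the filter on low counts. MRPL52 stood in more than 1 row, and the row with the higher mean was used.

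The mitoribosome translates the few messenger RNAs that the mitochondrial genome encodes, all of them for subunits of the respiratory chain and the ATP synthase. Its RNA comes from the mitochondrial genome, but every protein of it is encoded in the nucleus, made in the cytosol and imported. Many of these proteins have a counterpart in bacterial ribosomes and many are particular to mitochondria. Lymphocytes are known to make more mitochondria when they are activated. The roles given below are those described for the human mitoribosome.

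The RNA came from blood mononuclear cells (PBMCs), which are lymphocytes and monocytes. There were 5 obese dogs, with the breed labels Dachshunds for obese dog 1, Chihuahua for dog 2, Labrador retrievers for dogs 3 and 4 and Welsh Corgi for dog 5. The normal group held 3 Beagles. Breed and body condition cannot be told apart, because no breed occurs in both groups, and the labels give no age, sex, diet or definition of obesity. In these libraries a transcript is counted by a tag at its 3′ end, so levels of different genes were compared without a correction for length. For the 24 members that overlap another gene, reads of that gene may be included, because no source used here gives the strand setting. The same limit holds for genes of other lists named below: DAP3, RMND1, RBFA, MTERF4, GUF1, MTRF1, GATB, HARS2, PPARGC1A, TFAM, CS and HSPD1.

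Library totals ran from 10264202 to 14910982 counts. Obese dog 3 stood apart from the other obese dogs. The 7 erythroid markers summed to 1182 CPM in obese dog 3, to between 7.76 and 26.0 CPM in the remaining obese dogs and to between 6.82 and 10.1 CPM among normal dogs, where AHSP was at 0. CPM are counts per 1000000 on library sizes scaled by TMM, the normalization of edgeR. Markers of the labelled cells were present: the 9 T cell markers summed to between 463 and 1618 CPM across obese dogs and between 337 and 470 CPM across normal dogs, and the 7 measured monocyte markers to between 763 and 3294 CPM across obese dogs and between 2712 and 4092 CPM across normal dogs. Of the 7 monocyte markers, 4 were higher and 3 lower in the obese dogs by log2 fold change. In bulk RNA, fewer cells of a type and less RNA per cell cannot be told apart.

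The comparison asks whether mRNAs of the mitoribosome differ between obese and normal dogs. None of the 76 passed the threshold of an adjusted p under 0.05 in edgeR's quasi-likelihood test, adjusted over all 20632 genes tested, of which 0.233% passed. At an unadjusted p under 0.05 there were 11 members (14.5%), against 15.7% of all genes. Over both directions together the share of members was thus near the background. By direction, 9 of the 76 had a positive log2 fold change (obese minus normal), where 9.01% of all genes were higher at this p. A negative one was found for 2 of the 76, where 6.73% of all genes were lower. A difference from these shares was not tested. The groups did not overlap for 6 members (7.89%), against 10.9% of all genes. Other tools called more members and more genes alike. DESeq2's Wald test called 1 member, MRPS14 (adjusted p = 0.0299), against 5.11% of the genes it tested. Limma-voom with library weights called 13 members (17.1%), against 19.1% of all genes. By direction these were 12 members higher and 1 lower, where 9.15% of all genes were called higher and 9.96% lower. Without obese dog 3 edgeR called 4 members (5.26%), all higher, against 8.28% of genes, 3.25% higher and 5.03% lower.

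By subunit, at an unadjusted p under 0.05, 4 of 49 MRPL genes were higher and 1 lower (10.2% in all). For MRPS, 5 of 27 genes were higher and 1 lower (22.2% in all). Of all genes 15.7% lay under this p, 9.01% higher and 6.73% lower. The median log2 fold change was 0.17 over the large subunit and 0.32 over the small subunit, beside 0.09 over all genes tested. Fold changes were positive for 33 of the 49 and 21 of the 27, beside 55.3% of all genes. The quartiles lay at −0.11 and 0.55 for the large subunit, at 0.02 and 0.48 for the small subunit and at −0.40 and 0.55 for all genes. These medians rested on normal dog 2: without it the large subunit median was −0.03, with 23 of 49 positive, and the small subunit median was 0.11, with 16 of 27 positive. Without normal dog 1 the large subunit median was 0.48 and the small subunit median 0.50, and without obese dog 4 the large subunit median was 0.09. With upper-quartile scaling the median of all genes moved to −0.03, and relative to it the large subunit median was 0.08 and the small subunit median 0.24, beside 0.07 and 0.23 with TMM.

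**Figure D1:**
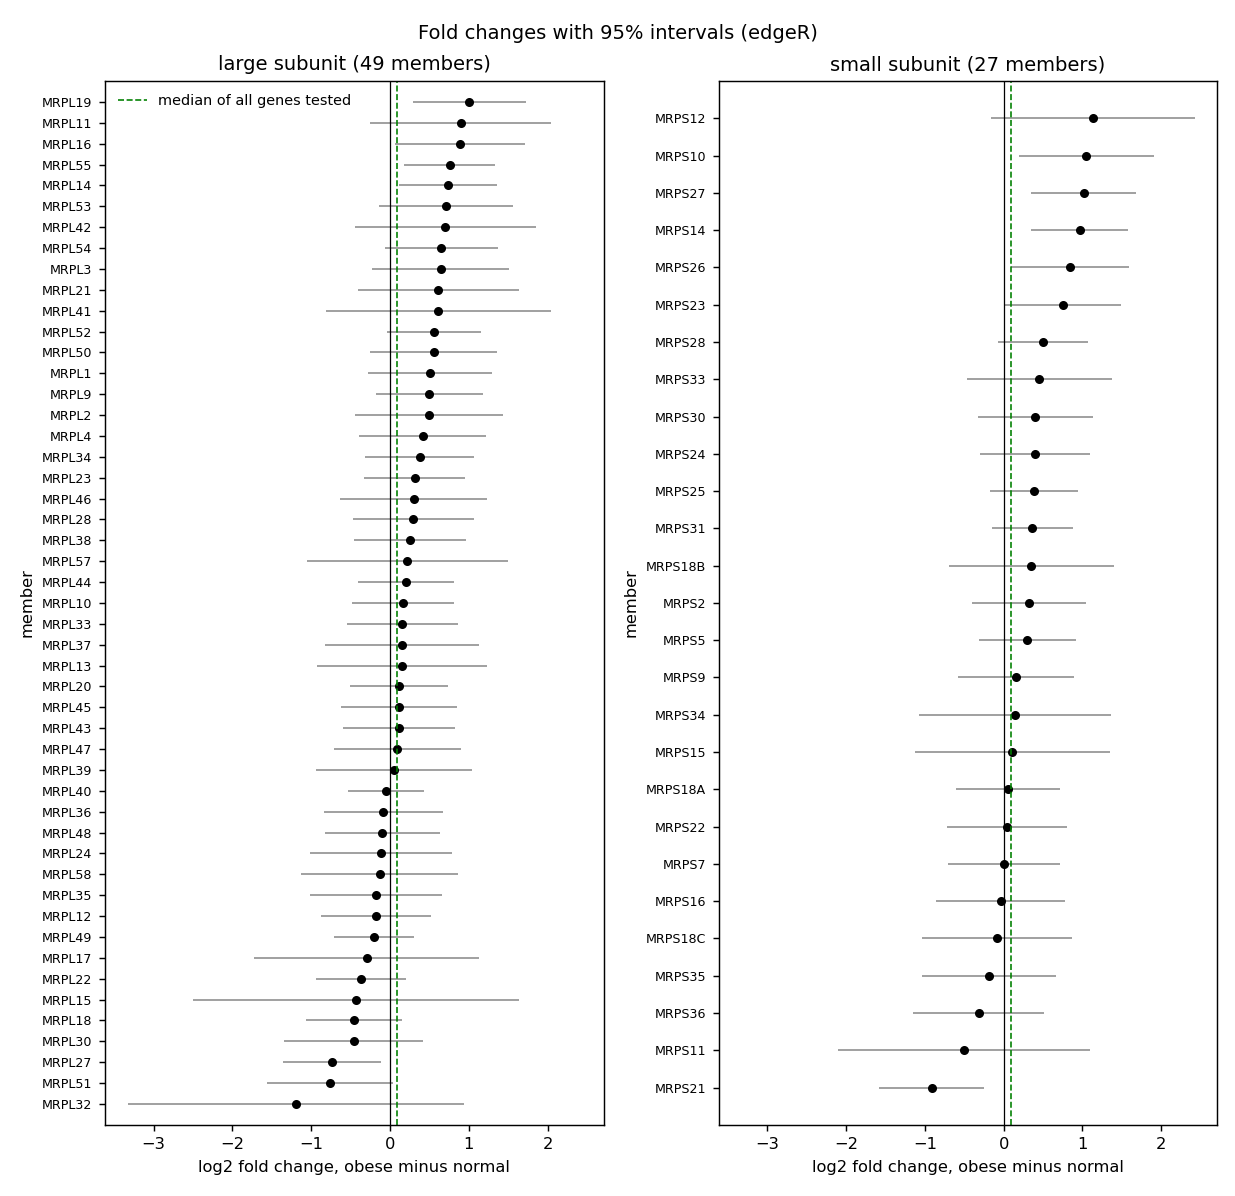
Log2 fold change (obese minus normal, x axis) of each of the 49 large and 27 small subunit members (y axis), as points with 95% intervals from edgeR. The dashed line is the median of all genes tested, 0.09. The intervals of 11 members do not reach 0, and none of the 76 passed after adjustment over all genes.

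**Figure D2:**
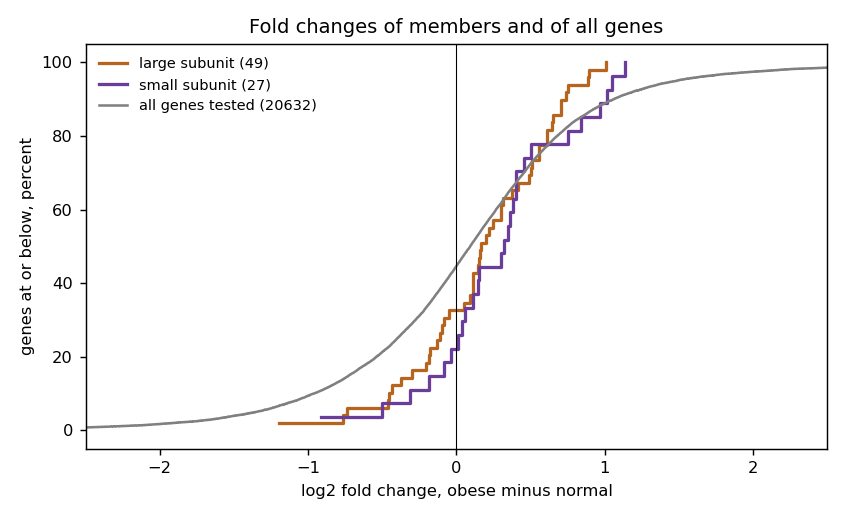
Cumulative share of genes (y axis, percent) at or below each log2 fold change (x axis, obese minus normal) for the large subunit, the small subunit and all genes tested. The member curves lie inside the spread of all genes, with medians of 0.17, 0.32 and 0.09.

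The width of the intervals sets what could be seen. The 95% interval had a median half-width of 0.76 log2 units over the 76 members. For 23 members it lay wholly between −1 and 1, so that a change of 1 log2 unit either way is outside the interval. For 41 members it reached 1 or more and for 18 it reached −1 or less, so a change of that size lies inside these intervals with 5 and 3 dogs. MRPL40, a member particular to mitochondria, had the steadiest level of the large subunit in the obese dogs. It had 25.9, 24.1, 27.8, 27.0 and 24.4 CPM in obese dogs 1 to 5, against 25.1, 27.6 and 27.4 CPM in normal dogs 1 to 3. Its log2 fold change was −0.05 with a 95% interval of −0.53 to 0.43.

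Levels spanned a wide range within each subunit. Mean levels over the 8 dogs ran from 3.87 CPM (MRPL32) to 73.0 CPM (MRPL22) in the large subunit, with a median of 14.9 CPM. In the small subunit they ran from 2.22 CPM (MRPS34) to 52.1 CPM (MRPS26), with a median of 21.2 CPM. MRPL22, which lines the exit tunnel of the nascent chain, was followed by MRPL21 with 69.7 CPM and MRPL1, of the stalk beside which spent tRNA leaves, with 65.8 CPM. After MRPS26 came MRPS28 with 43.3 CPM and MRPS27 with 41.9 CPM. MRPL32, whose protein is processed by a protease of the inner membrane before it joins the ribosome, and MRPL30 with 6.27 CPM were the lowest of the large subunit. MRPS34, with 10 to 67 counts in a library, and MRPS11 with 4.53 CPM were the lowest of the small subunit. MRPL22, MRPL21 and MRPL1 differed from one another by less than their spread between dogs.

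Among small subunit members, MRPS14 had the smallest p. This protein of the head of the small subunit, with a bacterial counterpart, had 28.1, 40.3, 26.3, 31.2 and 30.6 CPM in obese dogs 1 to 5, against 19.5, 11.5 and 17.0 CPM in normal dogs 1 to 3. Every obese dog lay above every normal dog. The log2 fold change was 0.96 with a standard error of 0.279 and an adjusted p = 0.165 (edgeR). MRPS14 overlaps 2 uncharacterised genes in the reference table, of which 1 had 317 counts in all against 2823 for MRPS14 and the other is not analysed here. MRPS27, a pentatricopeptide repeat protein, had 46.4, 57.6, 36.2, 54.0 and 64.3 CPM in the obese dogs, against 36.2, 21.1 and 19.4 CPM in the normal dogs. Obese dog 3 and normal dog 1 met at the same rounded level, and the other dogs were separate by group. Its log2 fold change was 1.02 with a standard error of 0.302 and an adjusted p = 0.173 (edgeR). Without obese dog 3 both genes passed, with adjusted p = 0.0499 for MRPS14 and 0.0385 for MRPS27.

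MRPS10, of bacterial type, had 16.3, 14.9, 11.3, 12.8 and 9.45 CPM in the obese dogs, against 9.84, 4.65 and 4.21 CPM in the normal dogs. Only obese dog 5 and normal dog 1 overlapped, and the log2 fold change was 1.05 (adjusted p = 0.244, edgeR). MRPS26, particular to mitochondria, had 82.8, 76.6, 44.3, 65.5 and 43.3 CPM in the obese dogs, against 50.9, 23.7 and 30.0 CPM in the normal dogs, so that normal dog 1 lay above obese dogs 3 and 5. MRPS23, also particular to mitochondria, had 8.96 CPM in obese dog 3, 18.0 to 22.5 CPM in the remaining obese dogs and 10.2 to 11.2 CPM in the normal dogs. The log2 fold changes of MRPS26 and MRPS23 were 0.84 and 0.75. For MRPS28 it was 0.50, with 39.6 to 58.4 CPM across obese dogs and 28.3 to 43.7 CPM in the normal dogs.

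MRPS12, which sits at the decoding centre where codon and anticodon pair, had the highest log2 fold change of all 76, 1.13, with a wide 95% interval of −0.16 to 2.43. It had 3.74, 2.78, 12.6, 6.41 and 9.39 CPM in the obese dogs, against 4.22, 1.55 and 3.70 CPM in the normal dogs. Obese dogs 1 and 2 were no higher than normal dog 1, and the counts behind the values were 14 to 161 per library. In the reference table MRPS12 overlaps FBXO17, which had 321 counts in all against 594 for MRPS12, and no source used here gives the strand setting of the counting.

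MRPS21, a small protein with a bacterial counterpart, went the other way. It had 9.30, 13.0, 12.5, 16.9 and 18.4 CPM in the obese dogs, against 19.3, 31.4 and 28.7 CPM in the normal dogs. No obese dog reached the lowest normal dog, the gap being between obese dog 5 and normal dog 1. The log2 fold change was −0.92 with a standard error of 0.302 and an adjusted p = 0.21 (edgeR). No other gene overlaps MRPS21 in the reference table. The lowest-level members gave no firm value: MRPS11, of the platform, had 2 counts in obese dog 3 and 30 to 120 in the other libraries, and a log2 fold change of −0.50 with an interval of −2.10 to 1.10, while MRPS34 had 0.14 with an interval of −1.08 to 1.36.

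In the large subunit MRPL19 had the smallest p. MRPL19, a protein of bacterial type, had 22.5, 36.0, 19.6, 28.0 and 41.6 CPM in obese dogs 1 to 5, against 16.1, 11.5 and 16.5 CPM in normal dogs 1 to 3. The groups did not overlap. The log2 fold change was 1.01 with a standard error of 0.322 and an adjusted p = 0.199 (edgeR), and without obese dog 3 the adjusted p was 0.0457. MRPL55, counted among the bacterial type in the current nomenclature, had 54.1, 42.3, 45.7, 31.4 and 43.5 CPM in the obese dogs, against 30.7, 25.2 and 21.2 CPM in the normal dogs. Here too the groups did not overlap, by a margin of less than 1 CPM between obese dog 4 and normal dog 1. Its log2 fold change was 0.75 (adjusted p = 0.222, edgeR). MRPL55 overlaps GUK1 in the reference table, and GUK1 had 22.5 ± 4.68 CPM across obese dogs and 21.1 ± 7.54 CPM in the normal dogs (SD, n = 5 and n = 3).

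MRPL14, which takes part in the contact between the subunits, had 24.8, 15.8, 25.5, 23.0 and 21.1 CPM in the obese dogs, against 14.3, 10.4 and 14.9 CPM in the normal dogs, again without overlap. Its log2 fold change was 0.73 (adjusted p = 0.256, edgeR). MRPL14 overlaps TMEM63B, a membrane channel gene with 449 counts in all against 1989 and a log2 fold change of 0.84. MRPL16, which lies near the peptidyl transferase centre, had 80.0, 44.1, 35.0, 43.7 and 30.3 CPM in the obese dogs, against 35.8, 21.0 and 18.8 CPM in the normal dogs. Obese dog 1 was far above the rest, obese dogs 3 and 5 lay below normal dog 1, and the log2 fold change was 0.89.

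MRPL11, at the base of the stalk where elongation factors bind, was called or not depending on 1 library and on the tool. It had 47.2, 46.9, 8.28, 59.9 and 45.7 CPM in the obese dogs, against 30.2, 17.7 and 19.1 CPM in the normal dogs. Obese dog 3 was below every normal dog and the other obese dogs were above every normal dog. With all dogs the log2 fold change was 0.90 with a standard error of 0.518 and an adjusted p = 0.432 (edgeR), and without obese dog 3 it was 1.12 with an adjusted p = 0.0286. With all dogs limma-voom with library weights gave 1.18 with an adjusted p = 0.0269. Of the other proteins of that stalk, MRPL10 had 11.6 to 18.0 CPM across obese dogs and 10.2 to 15.3 CPM in the normal dogs, with a log2 fold change of 0.17. MRPL12, which is also reported to bind the mitochondrial RNA polymerase, had 8.51 to 13.4 CPM across obese dogs and 8.52 to 15.1 CPM in the normal dogs, with −0.18 and a 95% interval of −0.88 to 0.51.

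MRPL27, whose bacterial counterpart reaches into the peptidyl transferase centre, had 14.0, 8.73, 9.41, 12.7 and 11.8 CPM in the obese dogs, against 22.6, 16.5 and 17.5 CPM in the normal dogs. All normal dogs were above all obese dogs. The log2 fold change was −0.74 with a standard error of 0.278 and an adjusted p = 0.253 (edgeR). MRPL27 overlaps EME1, a subunit of a DNA repair nuclease, which had more counts in all (2937 against 1511) and a log2 fold change of −0.79, and without a known strand setting their reads cannot be told apart. MRPL51, particular to mitochondria, had 5.78 to 10.4 CPM across obese dogs and 8.87 to 17.7 CPM in the normal dogs, with a log2 fold change of −0.76, and of −0.36 without normal dog 1. It overlaps NCAPD2, a condensin subunit with 2825 counts in all against 941 and a log2 fold change of −0.70.

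MRPL52, MRPL53 and MRPL54, all particular to mitochondria, completed the 10 large subunit members with the smallest p-values. MRPL52 had 17.6 to 24.5 CPM across obese dogs and 11.5 to 17.9 CPM across normal dogs, with obese dog 1 below normal dog 1 and a log2 fold change of 0.56. MRPL53 had 15.3 to 38.1 CPM across obese dogs and 9.52 to 25.5 CPM across normal dogs, with a log2 fold change of 0.70, which became 0.38 with normal dog 2 left out and 1.10 with normal dog 1 left out. MRPL54 had 15.7 to 32.1 CPM across obese dogs and 13.1 to 17.6 CPM across normal dogs, with a log2 fold change of 0.65. The groups overlapped for each of them. MRPL52 overlaps SLC7A7, an amino acid transporter with 12867 counts in all against 1978, whose log2 fold change was 0.80. At an unadjusted p under 0.05, where 15.7% of all genes lay (median log2 fold change 0.09), there were 5 of the 30 large subunit members of bacterial type (16.7%, median 0.16) and 0 of the 19 particular to mitochondria (median 0.20). In the small subunit there were 3 of 14 measured of bacterial type (21.4%, median 0.23) and 3 of 10 particular to mitochondria (30.0%, median 0.37). A difference between the classes was not tested.

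**Figure D3:**
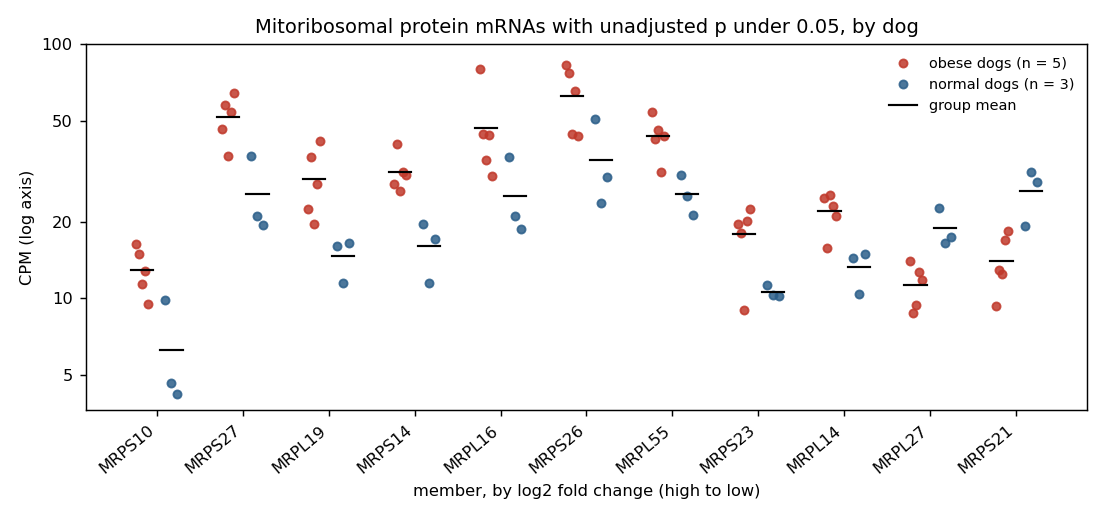
CPM in each dog (y axis, log scale) of the 11 members with an unadjusted p under 0.05 (x axis, by log2 fold change), obese dogs in red and normal dogs in blue, with a bar at each group mean. MRPS14, MRPL19, MRPL55, MRPL14, MRPL27 and MRPS21 have groups that do not overlap.

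The groups overlapped for the most abundant members of the large subunit. MRPL22 had 82.9, 88.4, 48.5, 55.5 and 53.6 CPM in the obese dogs, against 88.2, 81.9 and 85.3 CPM in the normal dogs. Obese dogs 1 and 2 were close to the normal dogs and obese dogs 3 to 5 were lower (log2 fold change −0.37, adjusted p = 0.517, edgeR). MRPL22 overlaps an uncharacterised gene with 3301 counts in all against 7741. MRPL21 had 24.1 to 131 CPM across obese dogs and 45.1 to 64.0 CPM in the normal dogs, with obese dog 5 lowest and obese dog 2 highest of all 8. MRPL1 had 36.5 to 111 CPM across obese dogs and 33.9 to 62.5 CPM in the normal dogs, with log2 fold changes of 0.51 for MRPL1 and 0.61 for MRPL21. Without normal dog 2 the value for MRPL1 was 0.25 and without obese dog 5 it was 0.32, and without obese dog 2 the value for MRPL21 was 0.36.

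Some members have roles beside or apart from the subunit in their name. MRPL58, a peptidyl-tRNA hydrolase built into the large subunit that releases stalled chains, had 4.20 to 18.6 CPM across obese dogs and 9.63 to 19.3 CPM among normal dogs (log2 fold change −0.13). MRPS18A and MRPS30 carry small subunit names but are placed in the large subunit by structures. MRPS18A had 24.5 ± 6.88 CPM across obese dogs and 23.5 ± 2.21 CPM in the normal dogs, and MRPS30 had 23.2 ± 4.92 CPM across obese dogs and 17.5 ± 7.09 CPM in the normal dogs (SD, n = 5 and n = 3). The log2 fold change of MRPS30 was 0.40, or 0.11 with normal dog 2 left out and 0.73 with normal dog 1 left out. Of the paralogues of MRPS18A, MRPS18B had 84.3 CPM in obese dog 1, 15.0 to 43.9 CPM in the remaining obese dogs and 26.5 to 39.2 CPM in the normal dogs. MRPS18C had 6.12 to 23.3 CPM across obese dogs and 10.5 to 23.7 CPM in the normal dogs, and it overlaps ABRAXAS1, with 3445 counts in all against 1969 and a log2 fold change of −1.37. MRPS36, which despite its symbol belongs to the oxoglutarate dehydrogenase complex, had 7.15 to 17.3 CPM across obese dogs and 8.52 to 20.1 CPM among normal dogs (log2 fold change −0.32).

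The remaining 43 members had edgeR adjusted p-values from 0.45 (MRPL18) upwards. Of the 31 in the large subunit, 22 had a positive fold change, up to 0.70 (MRPL42), and the lowest value was −0.46 (MRPL18). MRPL18, a protein that also helps carry 5S RNA into mitochondria, had 23.7 to 52.6 CPM across obese dogs and 47.6 to 63.1 CPM in the normal dogs. Of the 12 in the small subunit, 10 had a positive fold change, with MRPS33 highest at 0.45 and MRPS35 lowest at −0.18. MRPS6 and MRPS17 are not analysed here. Leaving out 1 dog at a time gave log2 fold changes of −0.79 to −0.056 for MRPS11, −0.64 to −0.14 for MRPS36 and −0.42 to −0.056 for MRPL12.

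Levels of the members varied by dog within both groups. Normal dog 2 had the lowest level of the 8 dogs for 27 members and obese dog 3 for 25, against 24 for the other 6 dogs together. The median deviation from each member's mean over the dogs, on the log2(CPM + 0.5) scale, was −0.35 for the large and −0.13 for the small subunit in obese dog 3. For the other obese dogs it was 0.15 to 0.26 for the large and 0.12 to 0.33 for the small subunit. In normal dogs 1, 2 and 3 it was 0.24, −0.45 and −0.13 for the large subunit and 0.20, −0.60 and −0.15 for the small subunit. Normal dog 1 was thus at the level of obese dogs 1, 2, 4 and 5.

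Obese dog 3 also held the lowest single values. MRPL15 and MRPL32 had 0 counts there, which allows up to 0.34 CPM (3 counts), whereas they had 5.88 to 14.7 and 1.70 to 5.82 CPM in the remaining obese dogs and 5.75 to 12.5 and 1.22 to 9.91 CPM in the normal dogs. MRPL41 had 1.25 CPM in obese dog 3, 14.9 to 17.7 CPM in the remaining obese dogs and 6.42 to 11.2 CPM in the normal dogs. The summed monocyte markers were 3294 CPM in obese dog 3 and 763 to 1159 CPM in the remaining obese dogs. In normal dogs 1, 2 and 3 they were 2712, 4092 and 2892 CPM. The single markers did not go 1 way: 4 had a positive and 3 a negative log2 fold change, with a median of 0.05. VCAN had 377 ± 270 CPM across obese dogs and 1470 ± 653 CPM across normal dogs (SD, n = 5 and n = 3). CD68 and CSF1R had log2 fold changes of 0.86 and 0.43. The summed markers of dividing cells were 63.4 to 223 CPM across obese dogs and 244 to 400 CPM across normal dogs, and those of 7 plasma cell genes 131 to 249 CPM across obese dogs and 301 to 1075 CPM across normal dogs. The 5 measured platelet markers summed to 66.3 to 1230 CPM across obese dogs and 7.19 to 31.1 CPM in the normal dogs. Sums over the neutrophil markers were 226 to 1643 CPM across obese dogs and 555 to 1672 CPM across normal dogs, with obese dog 3 and normal dog 2 highest in their groups. B cell markers summed to 30.3 to 205 CPM across obese dogs and 39.0 to 74.2 CPM across normal dogs, and NK cell markers to 42.3 to 122 CPM across obese dogs and 56.8 to 82.0 CPM across normal dogs. The part of these cell markers in the levels of the members was not tested.

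**Figure D4:**
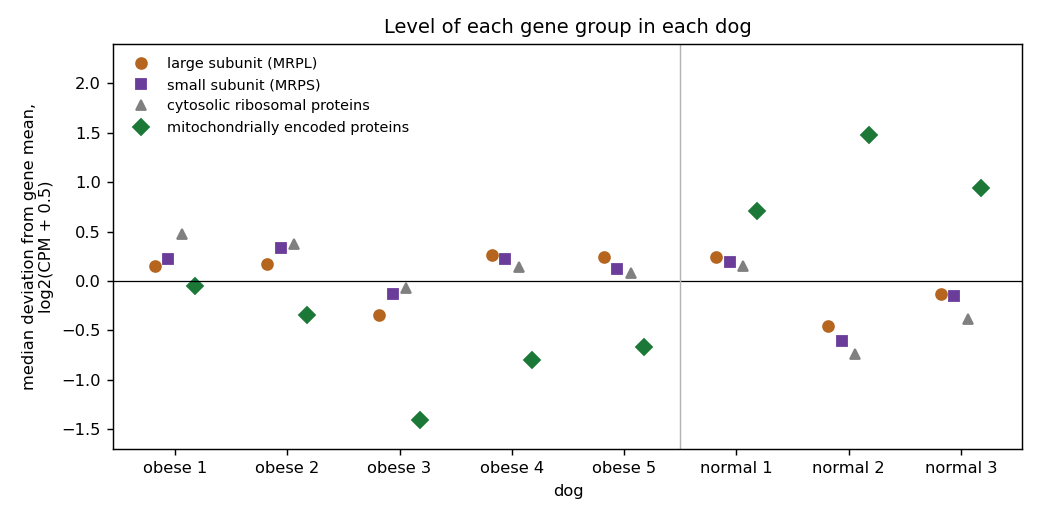
Median deviation of each gene group from the mean of each gene over the 8 dogs (y axis, log2(CPM + 0.5) scale) in each dog (x axis), for the large subunit, the small subunit, cytosolic ribosomal proteins and mitochondrially encoded proteins. Both subunits lie below 0 in obese dog 3 and normal dogs 2 and 3, and the mitochondrially encoded group is above 0 only in the normal dogs.

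As a share of all counts, the 76 members took 0.165, 0.208, 0.0995, 0.23 and 0.201% in obese dogs 1 to 5, against 0.196, 0.0989 and 0.155% in normal dogs 1 to 3. The means were 0.181 ± 0.0511% among obese dogs and 0.15 ± 0.0485% in the normal dogs (SD, n = 5 and n = 3), and the ranges overlapped. For the ratio of the subunits, members were again split by symbol, with MRPS18A, MRPS30 and MRPS36 counted as small. The ratio of large to small subunit counts, which does not depend on scaling, was 1.62, 1.69, 1.56, 1.72 and 1.64 in the obese dogs, against 1.79, 1.84 and 1.74 in the normal dogs. These ratios did not overlap, with means of 1.65 ± 0.0621 among obese dogs and 1.79 ± 0.0521 in the normal dogs (SD, n = 5 and n = 3). Without the 3 most abundant members of each subunit the ratios overlapped, at 1.69 to 1.90 among obese dogs and 1.62 to 1.84 among normal dogs. Of those left out, MRPS26, MRPS27 and MRPS28 are also among the small subunit members with the smallest p. The part of each gene in the difference was not tested.

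**Figure D5:**
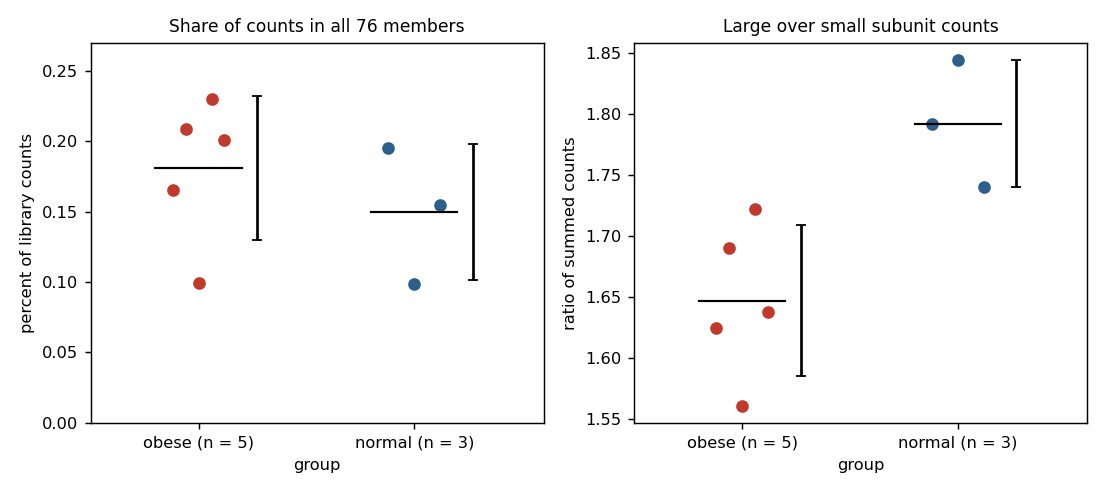
Left, percent of library counts in all 76 members (y axis); right, ratio of large to small subunit counts (y axis, which does not start at 0). Points are dogs, by group on the x axis, horizontal bars are means and vertical bars are SD (n = 5 obese, n = 3 normal). The shares overlap, and the ratios lie at 1.56 to 1.72 among obese dogs and 1.74 to 1.84 among normal dogs.

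The mRNAs that the mitoribosome translates were set beside its own. The 13 protein-coding genes of the mitochondrial genome took 0.69 to 2.30% of the counts of obese dogs and 4.60 to 6.28% of those of normal dogs. Their median log2 fold change was −1.75, and 4 of them passed the threshold, all lower, where 0.184% of all genes passed as lower. At an unadjusted p under 0.05 all 13 were lower, against 6.73% of all genes. The groups did not overlap for 12 of them (92.3%), against 10.9% of all genes. ND1, a core subunit of respiratory complex I, had 400 ± 154 CPM among obese dogs, against 1851 ± 323 CPM among normal dogs (SD, n = 5 and n = 3, adjusted p = 0.0415, edgeR). ND6 and ND5, also of complex I, had log2 fold changes of −2.29 and −1.75. In the normal dogs ND6 had a mean of 4370 CPM and ND5 one of 667 CPM. Without a known strand setting, reads from the opposite strand may be included in these values. For every count of a member there were 6.94 to 13.9 counts of mitochondrially encoded genes among obese dogs and 23.5 to 63.5 among normal dogs. Obese dog 3 had the lowest ratio and normal dog 2 the highest. The cytosolic ribosomal proteins, 74 measured, had a median log2 fold change of 0.56, with 71 positive, 22 higher (29.7%, against 9.01% of all genes) and none lower at an unadjusted p under 0.05, and none past the threshold of edgeR. RPS21 had a log2 fold change of 0.93 and FAU one of 0.89. A difference between these groups and the members was not tested.

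Other nuclear genes of mitochondrial translation also had no gene past the threshold. Of the 5 mitoribosomal proteins with other symbols none had an unadjusted p under 0.05. Among them DAP3, a GTP-binding protein of the small subunit, had 16.2 to 34.4 CPM across obese dogs and 12.8 to 23.0 CPM among normal dogs (log2 fold change 0.37), and CHCHD1 and AURKAIP1 had −0.11 and 0.08. Of 24 measured genes of mitoribosome assembly and rRNA, 19 had a positive fold change, beside 55.3% of all genes, with a median of 0.53 beside 0.09. At an unadjusted p under 0.05 there were 4 (16.7%), all higher, where 9.01% of all genes were higher and 15.7% lay in either direction. A difference from these shares was not tested. RMND1, which is thought to anchor the mitoribosome at the inner membrane, had 10.7, 9.78, 21.9, 13.2 and 17.0 CPM in the obese dogs, against 8.93, 3.32 and 4.02 CPM among normal dogs (log2 fold change 1.41, adjusted p = 0.192, edgeR). The groups did not overlap. RBFA, a factor of small subunit maturation, and MTERF4, of large subunit assembly, had 0.86 and 0.61.

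Among 20 genes that charge mitochondrial tRNA, 17 were positive (85.0%, beside 55.3% of all genes) with a median of 0.38 beside 0.09. An unadjusted p under 0.05 was found for 3 (15.0%), all higher, where 9.01% of all genes were higher and 15.7% lay in either direction. Whether the list differs from these shares was not tested. RARS2, the arginyl-tRNA synthetase of mitochondria, had 32.0, 41.3, 20.6, 28.2 and 26.0 CPM in the obese dogs, against 13.4, 11.0 and 12.6 CPM in the normal dogs. All obese dogs were above all normal dogs, and the log2 fold change was 1.26 (adjusted p = 0.106, edgeR). GATB and HARS2 had 0.78 and 0.82, and both overlap another gene in the reference table, HARS2 with HARS1 and GATB with FAM160A1 among others. In the 16 measured translation factors the median was 0.03, and OXA1L, which inserts the new chains into the inner membrane, had 45.0 CPM in obese dog 3, 120 to 133 CPM in the remaining obese dogs and 50.9 to 74.5 CPM in the normal dogs. GUF1 had 0.71 and the release factor MTRF1 −0.56.

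Regulators and markers of mitochondrial content did not pass either. The 12 regulators of nuclear genes of mitochondria had a median of −0.03 and none with an unadjusted p under 0.05. YY1, a factor that binds many of these promoters, had 147 to 190 CPM across obese dogs, against 171, 366 and 215 CPM for normal dogs 1, 2 and 3 (log2 fold change −0.58). PPARGC1A, a coactivator of mitochondrial biogenesis, had −0.93 and TFAM, which packages the mitochondrial genome, 0.47. The 11 measured genes of import and the matrix had a median of −0.03, and citrate synthase (CS) had 39.4 to 54.3 CPM across obese dogs and 54.9 to 63.8 CPM among normal dogs (log2 fold change −0.42, adjusted p = 0.372, edgeR), without overlap. HSPD1 and TIMM44 had −0.36 and −0.40.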

How the data were processed

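Raw counts by gene symbol were deposited, in a separate table for each dog. Per the labels' protocols the libraries were made with the Lexogen QuantSeq kit, and the tools named are Bowtie2 and bedtools, per the submitters' processing notes. No source used here gives the build, annotation, versions or strand setting. A repeated symbol kept its row with the highest mean. Counts were tested in R 4.3.3 with edgeR 4.0.16 (filterByExpr by group, TMM, robust glmQLFit and glmQLFTest), adjusted by Benjamini-Hochberg over 20632 genes. Standard errors are the size of the log2 fold change over the root of F, and 95% intervals use the fit's degrees of freedom. Gene overlaps came from the RefSeq table of UU_Cfam_GSD_1.0, without coordinates. Per-dog deviations used a pseudocount of 0.5. The fit was tested on simulated counts. Floors cover counting error only. Each library is labelled as 1 dog.

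The members and lists were chosen with earlier results of these data known. Members named were the 10 MRPL and 8 MRPS genes with the smallest p and the 3 highest and 2 lowest by level of each. Added to these were 11 genes fixed for their roles and up to 3 genes of each other list. For the marker lists sums are given, with single genes named for erythroid cells and monocytes. MRPL15, MRPL18, MRPL40, MRPL41, MRPL42, MRPS33 and MRPS35 were chosen after their values were seen. Alternatives were DESeq2 1.42.0 size factors and Wald test, upper-quartile factors, no filter, limma 3.58.1 voom with library weights, the dog number as a block, and leaving out each dog.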

Additional observations from a re-analysis of the deposited data

Results flagged for a closer look

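In 37 values checked within the obese group, 3 had a dog far from the others, where chance flags about 1 in 20. MRPL11 was at 8.28 CPM in obese dog 3 and at 45.7 to 59.9 CPM in the other obese dogs. MRPL51 was at 10.4 CPM in obese dog 3 and at 5.78 to 7.03 CPM in the others. MRPL16 was at 80.0 CPM in obese dog 1 and at 30.3 to 44.1 CPM in the others.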

How the results depend on the processing

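Of the 34 genes named by rule, DAP3 among them, 28 kept their direction in all 14 alternatives, and 12 passed in at least 1. Many of the 34 were picked for the smallest p in these same dogs, and the alternatives use the same libraries. These counts are therefore no independent support, and the matching shares of all genes were not counted. With limma-voom library weights 7 large subunit members were called higher and, of the small subunit, 5 higher and 1 lower (17.1% of members). Of 20632 genes 19.1% were called, 1887 higher and 2055 lower. At an unadjusted p under 0.05, 12 large and 8 small subunit members were higher and 1 of each subunit lower. At this p 3639 of all genes were higher and 3760 lower. The DESeq2 Wald test called 1 small subunit member, MRPS14, and 602 genes higher and 429 lower (5.11%). edgeR called 10 and 38. Upper-quartile factors moved the median of all genes from 0.09 to −0.03 and gave 3 large subunit members lower and 3 higher, and 1349 genes higher and 1837 lower, where TMM gave 1858 and 1388.

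With the dog number as a replicate block 0 genes passed in either direction. At an unadjusted p under 0.05 there were 919 genes higher and 715 lower (7.92% in all), and 7 members (9.21%). In the large subunit 3 were higher and 0 lower, and in the small subunit 3 were higher and 1 lower. With this block the log2 fold change of MRPS34 was −0.48 and that of MRPS18A −0.061 (−0.076 with upper-quartile factors). Same-numbered dogs did not deviate together (r of −0.02, −0.23 and 0.01 over genes). No dog correlated best with the dog of its own number in the other group, so the number is not taken as a pairing. Among the 52 members with no overlapping gene, 7 (13.5%) had an unadjusted p under 0.05, against 15.7% of all genes. In the large subunit 2 of these were higher and 0 lower, and in the small subunit 4 were higher and 1 lower. These 52 were chosen after seeing the data. Without the 3 most abundant members of each subunit, also chosen so, the ratio of large to small subunit counts differed by 0.0094 between groups (obese minus normal), against −0.145 with all. MRPL58 was 0.39 with limma-voom.

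Leaving out 1 dog at a time, genes passing ran from 0 to 661 higher and 2 to 1023 lower, both highest without obese dog 3 (8.28% of genes and 4 of 76 members, 5.26%). At an unadjusted p they ran from 859 to 2698 and from 876 to 2792. Large subunit members passing ran from 0 to 2 higher, with 1 to 11 higher and 0 to 2 lower unadjusted and a median of −0.033 to 0.48. Small subunit members passing ran from 0 to 2 higher, with 2 to 5 higher unadjusted and a median of 0.11 to 0.50. Log2 fold changes that turned sign ran from −0.13 to 0.39 for MRPS34, −0.40 to 0.10 for MRPL58, −0.0039 to 0.33 for MRPL10, −0.075 to 0.17 for MRPS18A, −0.095 to 0.53 for MRPS18B and −0.39 to 0.12 for MRPS18C. The cause was not tested. Depth limits the lowest members, such as MRPS34 with 10 counts in 1 library.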
